A study of Mus musculus with 6 samples.

Results

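Macrophages bind and take up modified lipoproteins, cell debris and dying cells through scavenger receptors and receptors for apoptotic cells. The levels of 10 such genes were read in RAW264.7 cells, a mouse macrophage-like line, with or without an Fbxw11 vector. The 10 genes are Msr1, Marco, Cd36, Scarb1, Olr1, Lrp1, Mertk, Axl, Stab1 and Mfge8, chosen by name, and all 10 were among the 56748 genes of the deposited table. Of these, 9 encode cell surface receptors, and Mfge8 encodes a secreted protein that bridges dying cells to integrins.
RNA was sequenced from 6 libraries of cells infected with lentiviruses, 3 with a control vector and 3 with an Fbxw11 vector named pMSCV-Fbxw11-pGk-GFP. Fbxw11 encodes an F-box protein that selects substrates for a ubiquitin ligase. Cells were sorted before RNA was taken, all came from the same cell line, and no stimulus is given in the labels. What the control vector carries besides the name GFP, and whether the libraries came from separate infections, is not described there. The p-values therefore cover library-to-library spread, perhaps technical, and may not cover culture-to-culture spread.

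Scavenger receptors are a mixed group, defined by the ligands they share more than by their sequence. Class A members (Msr1 and Marco) are trimers with collagen-like stalks that bind modified low-density lipoprotein (LDL) and bacterial surfaces. Class B members (Cd36 and Scarb1) span the membrane at both ends and move lipids. Dying cells expose phosphatidylserine, which Stab1 binds directly. Mertk and Axl reach it through the soluble ligand Gas6, and Mertk also through protein S. In macrophages this uptake clears dead cells and, when it takes in oxidised LDL, loads the cell with cholesterol.

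Values are FPKM, which are read fragments divided by the length of the gene and the size of the library, so levels can be set side by side between genes. Each library held between 16191971 and 18951653 reads recovered from the table. The library size behind the FPKM was 1.014 to 1.018 times these reads in control and 0.987 to 0.993 times in Fbxw11 libraries. Compared with plain read sums, this scaling raises FPKM in the Fbxw11 libraries slightly against control. The control libraries, 1 to 3 in order, held Fbxw11 itself at 35.8, 36.5 and 36.0 FPKM, and the libraries with its vector held it at 274, 272 and 268 FPKM. All 7 macrophage markers examined were above 1 FPKM. Among markers of other cell types, Pecam1 (endothelial), Itgax (dendritic cell, which rose) and S100a8 (neutrophil) were above 1 FPKM, and no marker of fibroblasts, epithelial cells or T cells was. On the second principal component, which held 23.7% of the variance, both libraries numbered 3 stood apart from the other 4. Each call of a member is therefore also given for libraries 1 and 2 of each group alone, a choice made after seeing the data.

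Of the 10 genes, 5 reached a mean of 1 FPKM over the 6 libraries and were tested with limma among 10898 genes. Msr1 and Cd36 rose with Fbxw11 and Lrp1 fell, where "rose" and "fell" mean a Benjamini-Hochberg adjusted p under 0.05. Over all genes tested, 9.24% passed in either direction, 4.60% as rises and 4.64% as falls. Scarb1 and Mfge8 did not pass. The other 5 members, Axl, Olr1, Stab1, Marco and Mertk, lay under the filter and have no test there. The median log2 fold change of the 5 tested members was 0.01, against 0.00 over all genes tested, and their values ran from -0.22 to 0.49. In bulk RNA, a change in the share of cells that express a gene and a change in RNA per cell cannot be told apart.

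The promoters of Cd36 and Lrp1 are shown as the regulatory sequence of a member that rose and of the member that fell. RefSeq entries of build GRCm38.p6 were matched for 8 of the 10 genes, all but Msr1 and Scarb1. Each line gives the 250 bases before an annotated start, 5′ to 3′ on the gene's strand, with GC boxes in capitals.
Cd36 promoter, chr5:17835897-17836146, minus strand: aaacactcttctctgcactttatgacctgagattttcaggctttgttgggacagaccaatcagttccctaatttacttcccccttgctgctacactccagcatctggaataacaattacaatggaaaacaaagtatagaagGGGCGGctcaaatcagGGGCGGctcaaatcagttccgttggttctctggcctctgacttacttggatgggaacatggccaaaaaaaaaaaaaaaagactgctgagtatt
Lrp1 promoter, chr10:127621149-127621398, minus strand: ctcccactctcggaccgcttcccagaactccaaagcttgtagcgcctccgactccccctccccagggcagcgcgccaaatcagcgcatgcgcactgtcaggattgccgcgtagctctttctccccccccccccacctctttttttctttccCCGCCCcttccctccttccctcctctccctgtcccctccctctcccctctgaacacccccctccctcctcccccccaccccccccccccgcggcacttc
Cd36 is transcribed from several starts, of which the table holds 1. Its window held 2 GC boxes (GGGCGG on either strand) and the Lrp1 window 1, and 32.7% of 32851 promoter windows of the same length held at least 1. Neither window held the TATA box TATAAA, the PU.1 core GAGGAA or the AP-1 motif TGANTCA, each searched on both strands and with none overlapping a GC box. These occurred in 12.4%, 23.3% and 6.75% of all windows. By base composition the windows differed, with 43.2% G or C in Cd36 and 67.2% in Lrp1. Among the other members, Olr1 held 1 AP-1 motif and 1 PU.1 core, Mertk 3 GC boxes, Mfge8 4 GC boxes and 1 PU.1 core, Axl 1 of each, and Marco and Stab1 1 PU.1 core each. These are matches of letters in a window, with no binding measured.

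Msr1, the class A receptor for modified LDL, was measured at 47.8, 47.0 and 45.9 FPKM in the control libraries, given in the order 1 to 3 here and below, and at 64.5, 68.4 and 66.7 FPKM with Fbxw11. Every Fbxw11 library lay above every control library, as in 15.6% of all genes tested. Between 4934 and 7741 reads lay behind each value. The mean went from 46.9 ± 0.987 to 66.5 ± 1.93 FPKM (SD, n = 3 each), a ratio of 1.42. On the log2(FPKM + 1) scale the fold change was 0.49 (SE 0.035, limma adjusted p = 0.00102). Without both libraries numbered 3 it was 0.48 (limma adjusted p = 0.0129). All 17 alternative settings called it, with log2 fold changes between 0.46 and 0.52. Msr1 lies on chromosome 8 at 40034726 to 40095714 on the minus strand, as positioned in the deposited table (build unknown).
Of 7 general macrophage markers, 4 (Adgre1, Itgam, Fcgr1 and Lyz2) also rose and 0 fell. Among all genes tested, 4.60% rose and 4.64% fell. The summed level of the 7 markers ran from 3145 to 3310 FPKM without Fbxw11 and from 3503 to 3626 FPKM with it. Adgre1, which encodes the F4/80 antigen, went from 55.0 ± 1.33 to 80.4 ± 2.34 FPKM, a ratio of 1.46. Csf1r, the receptor for the macrophage growth factor CSF-1, stood at 154 ± 4.32 and 147 ± 2.43 FPKM and did not pass (limma adjusted p = 0.290). The part of these markers in the Msr1 result was not tested.

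Marco, the other class A receptor, which macrophages can induce on contact with bacterial products, was all but absent. It had 0, 2 and 0 reads in the control libraries and 0 reads in each Fbxw11 library. A count of 0 allows up to 3 reads, which is at most 0.0957 FPKM in these libraries. A difference between the groups was not detectable at this depth.

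Cd36, the class B receptor for oxidised LDL and long-chain fatty acids, gave control values of 10.6, 10.1 and 10.4 FPKM and Fbxw11 values of 12.1, 11.8 and 12.5 FPKM. The groups did not overlap, which held for 31.1% of all genes tested, and between 627 and 767 reads lay behind each value. Mean FPKM went from 10.4 ± 0.240 to 12.2 ± 0.364 (SD, n = 3 each), a ratio of 1.17, with a log2 fold change of 0.21 (SE 0.039, limma adjusted p = 0.0234). The call is narrow: it was lost in 8 of 17 alternatives, among them each of the 6 that leave out a single library (limma adjusted p = 0.0522 to 0.0986). With libraries 1 and 2 alone the log2 fold change was 0.19 (limma adjusted p = 0.0983).

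Scarb1, the other class B member, takes up cholesterol from high-density lipoprotein. The control libraries gave 3.51, 3.51 and 3.44 FPKM, and those with Fbxw11 3.08, 2.87 and 3.33 FPKM. The 3 Fbxw11 libraries were the lower ones, as in 15.5% of all genes tested. They were spread more widely, with an SD of 7.46% of the mean against 1.13% in control. The log2 fold change was -0.13, with a 95% interval from -0.27 to 0.0044 (limma adjusted p = 0.215), and no alternative called it. Within each library Cd36 stood at 2.98 ± 0.0780 times Scarb1 in control and at 3.94 ± 0.176 times in Fbxw11 libraries. This ratio sets a member that lay higher against one that lay lower, so its shift restates those differences.

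Olr1, which encodes the lectin-like receptor LOX-1 for oxidised LDL, was low throughout. Control libraries gave 0.443, 0.641 and 0.314 FPKM and Fbxw11 libraries 0.447, 0.455 and 0.476 FPKM, on 19 to 44 reads each. The control libraries spanned the whole range of the Fbxw11 libraries, and the means were 0.466 ± 0.165 and 0.459 ± 0.0153 FPKM.

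Lrp1 is a large endocytic receptor of the LDL receptor family. It takes up apolipoprotein E remnants and protease-inhibitor complexes, and it serves as a receptor for calreticulin on dying cells. Its control values were 45.9, 47.2 and 48.6 FPKM, and its values with Fbxw11 were 42.1, 38.9 and 39.9 FPKM. Every Fbxw11 library lay under every control library, as in 15.5% of all genes tested. At 12038 to 16072 reads per library, Lrp1 had the most reads of the 10 members. Mean FPKM went from 47.2 ± 1.33 to 40.3 ± 1.61 (SD, n = 3 each), which is 1.17-fold lower, with a log2 fold change of -0.22 (SE 0.041, limma adjusted p = 0.0215). The call was lost in 7 of 17 alternatives, among them 5 of the 6 that leave out a library (limma adjusted p = 0.0557 to 0.0862). It held without Fbxw11 library 1. With libraries 1 and 2 alone the log2 fold change was -0.20 (limma adjusted p = 0.0883). A long noncoding gene on the opposite strand, Gm16217, overlaps Lrp1 but had 6 to 15 reads in a library.

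In the control libraries Lrp1 and Msr1 were the most abundant members and overlapped each other. In the Fbxw11 libraries they were apart, with Msr1 above Lrp1 in every library. The ratio of Msr1 to Lrp1, which no scaling of a whole library can move, was 1.04, 0.997 and 0.944 without and 1.53, 1.76 and 1.67 with the Fbxw11 vector. This ratio sets a member that rose against the member that fell, so its shift restates those calls. Summed over the 10 members, FPKM was 127 ± 1.06 in control and 141 ± 0.599 in Fbxw11 libraries. Msr1 made up 36.9% ± 1.08 of that sum in control and 47.1% ± 1.47 in Fbxw11 libraries, and Lrp1 37.1% ± 0.740 and 28.5% ± 1.11. Below these, the order was Mfge8, Cd36, Scarb1 and Axl in both groups, with no overlap between neighbours down to Axl. Olr1 and Stab1 overlapped in control but not in Fbxw11 libraries.

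**Figure D1:**
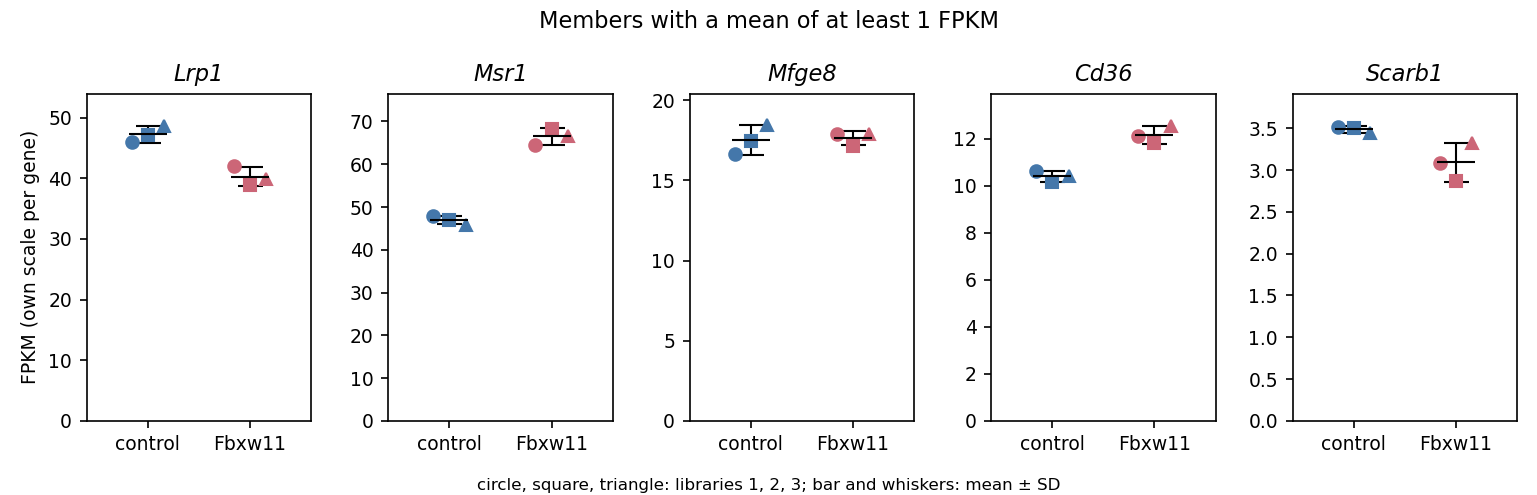
FPKM of the 5 members with a mean of at least 1 FPKM, a panel per gene with its own scale from 0, control and Fbxw11 libraries on the x axis; points are libraries, bars are mean ± SD (n = 3). Msr1 and Cd36 lay higher in the Fbxw11 libraries, Lrp1 and Scarb1 lower, and Mfge8 overlapped. Scarb1 did not pass the limma test.

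**Figure D2:**
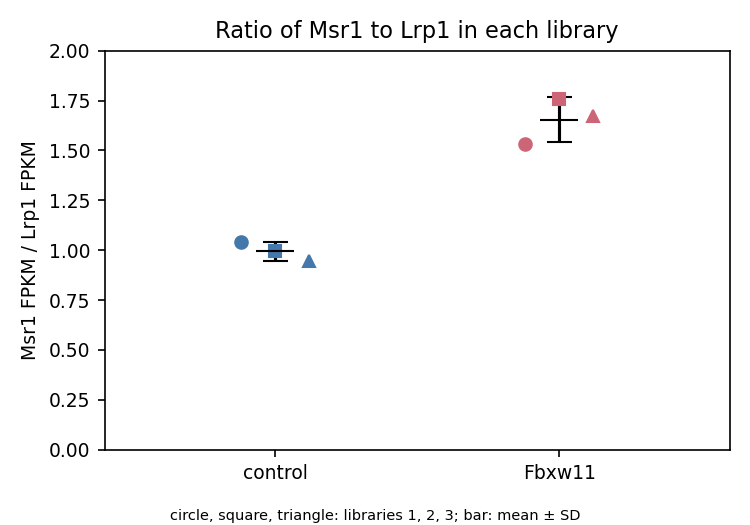
Ratio of Msr1 FPKM to Lrp1 FPKM (y axis, no unit) in each library, by group; points are libraries, bars are mean ± SD (n = 3). The control libraries sit between 0.944 and 1.04 and the Fbxw11 libraries between 1.53 and 1.76.

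Mertk and Axl are receptor tyrosine kinases that, with Tyro3, form the TAM family. None of the 3 reached a mean of 1 FPKM. Mertk, the kinase through which many macrophages engulf dying cells, had 1 read in Fbxw11 library 1 and 0 reads in the other 5 libraries. Reads of 0 allow up to 3 per library, at most 0.0421 FPKM for Mertk.
Axl, the TAM receptor often raised by inflammatory stimuli, was listed at 0.894, 0.951 and 0.832 FPKM without Fbxw11, against 0.671, 0.657 and 0.665 FPKM with it. The groups did not overlap, which held for 31.1% of the genes tested. The mean went from 0.892 ± 0.0595 to 0.664 ± 0.00717 FPKM, 1.34-fold lower. Behind these stood 237 reads in the control and 171 in the Fbxw11 libraries. At 55 to 92 reads a library, counting error alone is 10.4% to 13.5% of a value, while the SD of the Fbxw11 libraries was 1.08%, so their close agreement understates the error. An exact permutation test gave p = 0.1 (two-sided, n = 3 against 3), the smallest that this design allows. With no filter on low values, the log2 fold change of Axl was -0.18 (SE 0.066) and it did not pass (limma adjusted p = 0.308, over 25297 genes of which 2.36% passed). At under 1 FPKM, the 1 added before taking logs makes this fold change smaller than the 1.34-fold difference of the means.
The soluble TAM ligands and Tyro3 are named for their role, outside the rule for named genes. Gas6 stood at 2.76 ± 0.0727 and 2.37 ± 0.242 FPKM, control before Fbxw11 (limma adjusted p = 0.221). Pros1, the gene of protein S, stood at 1.17 ± 0.0483 and 1.20 ± 0.193 FPKM (limma adjusted p = 0.934). Tyro3 had 3 to 5 reads a library.

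Stab1, which encodes stabilin-1, binds phosphatidylserine and acetylated LDL. The control libraries held it at 0.278, 0.308 and 0.321 FPKM and the Fbxw11 libraries at 0.382, 0.332 and 0.268 FPKM, on 47 to 64 reads each. The Fbxw11 libraries included both the highest and the lowest value, so the groups overlapped. Nt5dc2 overlaps Stab1 on the opposite strand, and with no strand setting known for the counting, the Stab1 level is uncertain. Stabilins also mark some endothelial cells. Of 6 endothelial markers, Pecam1 was above 1 FPKM and Lyve1 had 0 reads, and the sum of the 6 ran from 1.45 to 1.61 FPKM without Fbxw11 and from 1.43 to 1.73 FPKM with it.

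**Figure D3:**
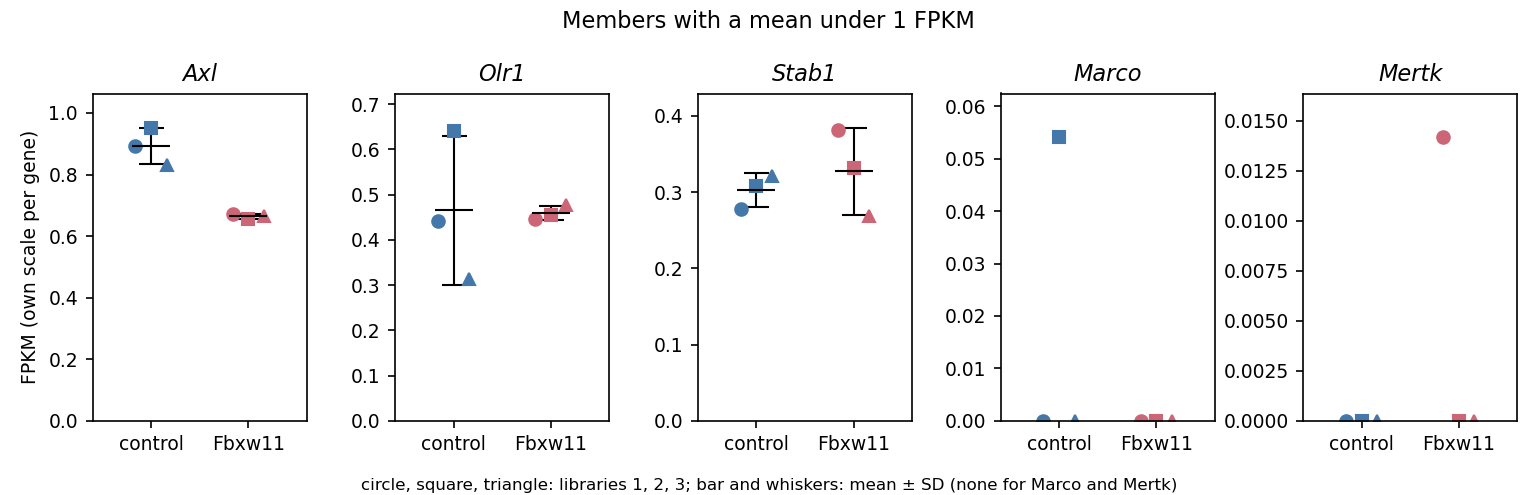
FPKM of the 5 members with a mean under 1 FPKM, a panel per gene with its own scale from 0; points are libraries and bars are mean ± SD (n = 3), left out for Marco and Mertk. Axl was lower in each Fbxw11 library, at 0.657 to 0.671 against 0.832 to 0.951 FPKM, and Marco and Mertk each had reads in a single library.

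Mfge8, also called lactadherin, links phosphatidylserine on dying cells to the integrins αvβ3 and αvβ5. Control values were 16.6, 17.5 and 18.5 FPKM, and Fbxw11 values were 17.9, 17.1 and 17.9 FPKM. All 3 Fbxw11 libraries lay inside the control range. The log2 fold change was 0.01 with a 95% interval from -0.10 to 0.12 (limma adjusted p = 0.921), and its sign turned on the TPM scale and in 3 other alternatives.
The integrin genes that bind it differed among themselves. Itgav, the αv chain, fell from 26.4 ± 0.288 to 20.7 ± 0.701 FPKM, a log2 fold change of -0.33 (limma adjusted p = 0.00367). Itgb5 stood at 4.98 ± 0.335 and 5.16 ± 0.352 FPKM (limma adjusted p = 0.733). Itgb3, under the filter, stood at 0.732 ± 0.0335 and 0.540 ± 0.0909 FPKM. Its groups did not overlap, which held for 31.1% of the genes tested. The beta chains are named for their role, outside the rule for named genes.

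**Figure D4:**
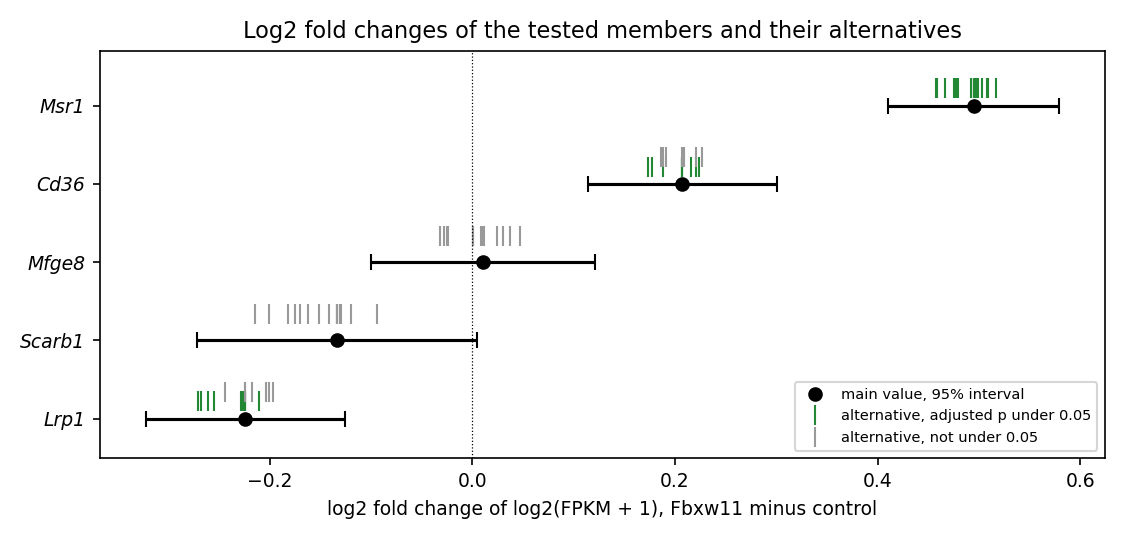
Log2 fold change of log2(FPKM + 1), Fbxw11 minus control (x axis), of the 5 tested members (y axis); black points with 95% intervals are the main values, and ticks are alternative settings, green where the adjusted p was under 0.05 (voom values are log2 counts over library size). Msr1 kept its call in every alternative, while Cd36 and Lrp1 had ticks of both kinds.

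Other genes of the same pathways were taken from lists by function, and the share of all tested genes that passed was 9.24%. Of 14 other scavenger receptors, 4 were tested and 0 passed the limma test (0 also in voom on recovered reads, and 1 at an unadjusted p under 0.05). The most abundant were Cd68, a lysosomal glycoprotein, at 551 ± 21.7 and 597 ± 29.9 FPKM (limma adjusted p = 0.212), and Colec12, a collectin that binds oxidised LDL, at 41.3 ± 0.422 and 40.1 ± 1.79 FPKM (0.585). Of the 10 untested ones, Cd163 and Scara5 had 0 reads in each library. The list's median log2 fold change was -0.07.
Of 11 other genes of the LDL receptor family and its chaperone, 8 were tested, 1 fell and 0 rose, with a median log2 fold change of -0.06. Lrp8, a receptor for apolipoprotein E and reelin, fell from 3.28 ± 0.161 to 2.61 ± 0.104 FPKM (log2 fold change -0.25, limma adjusted p = 0.0429), a call lost in 10 of 16 alternatives. Lrpap1, the chaperone that keeps ligands off Lrp1 during its synthesis, stood at 25.4 ± 1.37 and 23.3 ± 1.19 FPKM (limma adjusted p = 0.242).

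Of 25 other receptors for dying cells, bridging molecules and inhibitory signals, 15 were tested, 1 rose and 3 fell, with a median log2 fold change of 0.02. Sirpa, the macrophage receptor for the inhibitory signal Cd47, rose from 96.4 ± 1.45 to 113 ± 2.43 FPKM (log2 fold change 0.23, limma adjusted p = 0.00843). Havcr2, the gene of the phosphatidylserine receptor TIM-3, fell from 7.44 ± 0.699 to 4.49 ± 0.300 FPKM (-0.62, limma adjusted p = 0.00532). Cd300lf, another lipid-binding receptor of dying cells, fell from 5.88 ± 0.401 to 4.61 ± 0.296 FPKM (-0.30, limma adjusted p = 0.0345), a call lost in 7 of 17 alternatives, and Itgav, given above, also fell. The complement genes C1qa, C1qb and C1qc and the receptor gene Timd4 had 0 reads in each library.

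Downstream of binding, 17 of 18 genes of engulfment signalling and phagosome maturation were tested. None passed the limma test (0 of 17, with 4 at an unadjusted p under 0.05 and 0 called by voom). Their median log2 fold change was 0.06. Rac2, a GTPase of the phagocyte cytoskeleton, stood at 127 ± 3.16 and 142 ± 8.18 FPKM (limma adjusted p = 0.0933) and Rab7, of late endosomes, at 121 ± 1.36 and 127 ± 4.65 FPKM (0.296). Of 16 genes that handle cholesterol and lipid after uptake, 15 were tested, 2 fell and 0 rose, with a median of 0.03. Pltp, which transfers phospholipids between lipoproteins, fell from 2.47 to 1.52 FPKM (-0.46, limma adjusted p = 0.00636), and Abcg1, which exports cholesterol, fell from 21.5 to 18.5 FPKM (-0.20, limma adjusted p = 0.0117), a call lost in 3 of 17 alternatives.

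Of 19 transcription factors known to act on genes of this kind, 13 were tested, 2 rose and 0 fell, with a median log2 fold change of 0.09. Ets2, an ETS factor, rose from 97.7 ± 1.14 to 109 ± 3.91 FPKM (0.15, limma adjusted p = 0.0450) and the nuclear receptor gene Nr4a1 from 1.53 ± 0.104 to 2.12 ± 0.0706 FPKM (0.30, limma adjusted p = 0.0340). These calls were lost in 12 of 17 and 10 of 16 alternatives. Pparg, the gene of a nuclear receptor known to induce Cd36 in macrophages, had 0 reads in each library. It is named after its value was seen.
Of 10 proteases that cut receptors from the cell surface and their regulators, 7 were tested, 2 rose and 0 fell, with a median of 0.07. Rhbdf2, which carries the protease ADAM17 to the surface, rose from 21.3 ± 0.607 to 26.1 ± 1.18 FPKM (0.28, limma adjusted p = 0.0132), a call lost in 2 of 17 alternatives. The proprotein convertase gene Furin rose from 43.4 ± 1.40 to 52.7 ± 2.98 FPKM (0.27, limma adjusted p = 0.0214), a call lost in 7 of 17 alternatives. Adam17 itself, named for its role, stood at 37.4 ± 0.899 and 38.7 ± 0.615 FPKM (limma adjusted p = 0.428).

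**Figure D5:**
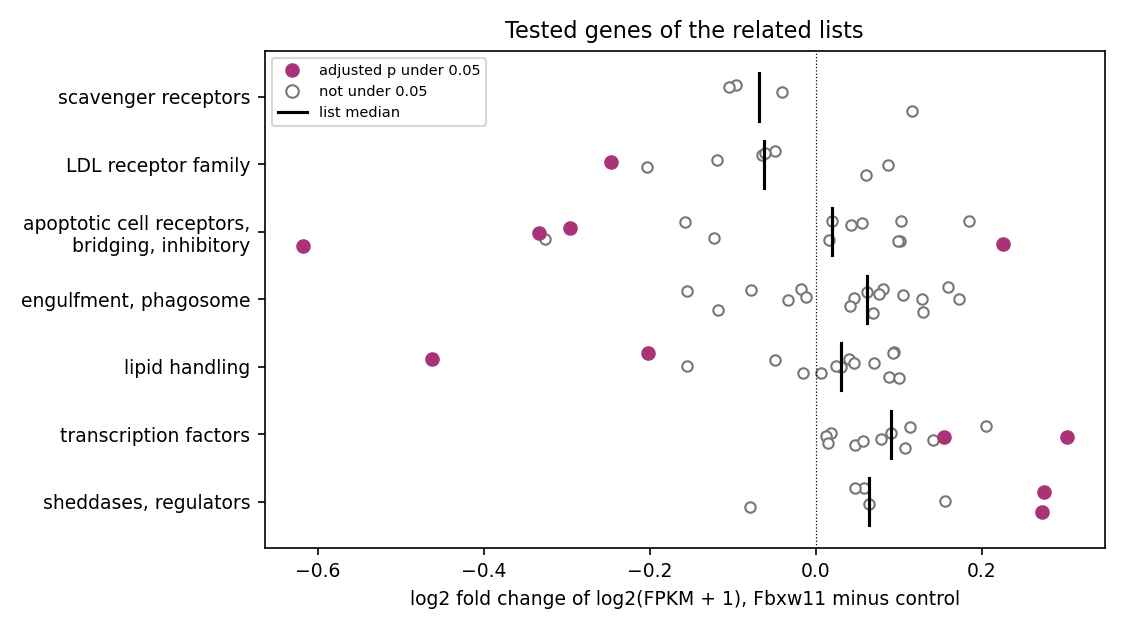
Log2 fold change of log2(FPKM + 1), Fbxw11 minus control (x axis), of each tested gene in the 7 lists (y axis, points spread vertically for legibility); filled points passed an adjusted p under 0.05 and black bars are list medians. List medians lie between -0.07 and 0.09, with Havcr2 at -0.62 and Pltp at -0.46 the farthest to the left.

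Msr1 was the member with the smallest p. Over the 6 libraries, the other protein-coding genes whose log2(FPKM + 1) followed it most closely were Ifna4, Il6, Slfn4 and Arrdc4 (Pearson r = 0.9995, 0.9991, 0.9990 and 0.9980). With 2 groups of 3 libraries such values mostly restate the group difference and are given as a description. Il6, the interleukin-6 gene, went from 4.51 ± 0.208 to 13.9 ± 1.26 FPKM and Slfn4 from 313 ± 2.07 to 405 ± 10.1 FPKM. Ifna4 belongs to a family of near-identical genes, so its value is uncertain.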

How the data were processed

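RNA-seq libraries of sorted RAW264.7 cells, 3 per group, were grouped by their titles. The authors deposited 1 table of FPKM values per gene and library. The submitters' processing notes name mm10 as the build, but none of the 10 members has the position that GENCODE M21 gives it on that build, so the build of printed gene coordinates is unknown. The aligner, the counting tool and the strand setting were likewise not given in the sources used here. Multiplied by gene length and by a library size estimated from the table, 100% of values above 0 lay within 0.02 of a whole number of reads. These recovered reads give the depth behind each value, and intervals or floors from them cover counting error only.

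The scale was log2(FPKM + 1), which understates changes of low genes, and the 10898 genes whose mean over the libraries reached 1 FPKM were tested. The test was limma 3.58.1 in R 4.3.3 (mean-variance trend, two-sided, Benjamini-Hochberg over all genes tested, threshold 0.05). The procedure was also run on simulated counts with known changes. These were drawn with the same scatter setting for each gene and with no effect that sets libraries apart. That run therefore does not give the error rates in these data. Another 10 settings (pseudocount, filter, scaling, test, block) and 6 that leave out a library were run, with 1 more added after seeing the data. From each list the text names its called genes, at most the 4 of smallest p, and its most abundant genes where fewer than 2 were called. The members and lists were chosen with earlier results of these data known. The result of 1 marker list is not reported here. No block entered the main test, because the labels do not say that a replicate number marks anything shared. Deviations from the group means correlated at 0.036, 0.041 and 0.189 in the 3 like-numbered pairs, and from -0.162 to 0.148 in the others.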

Additional observations from a re-analysis of the deposited data

How the results depend on the processing

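Over all genes, 501 rises and 506 falls became 289 and 307 with no filter, where more genes were tested, and voom on recovered reads called 1040 falls. With the replicate number as a block, 303 genes rose and 318 fell, and 1 member rose and 0 fell. Among pairs of a control and an Fbxw11 library, the pair numbered 3 had the highest correlation (0.189). Control library 1 followed Fbxw11 library 2 more closely (0.148) than its own number (0.036). The cause of the lost calls was not tested. Leaving out a single library gave 190 to 418 rises and 220 to 383 falls over all genes, with 1 member higher throughout and 0 to 1 lower. With libraries 1 and 2 alone, 363 rose and 335 fell, with 1 member higher and 0 lower. Msr1 was the member that stayed called in each of these. The Mfge8 log2 fold change turned to -0.0318 on the TPM scale, -0.0249 over plain read sums, -0.0277 with voom and -0.0241 without control library 1, and leaving out a library gave at most 0.0468. Scaling moved the share of rises among called genes from 49.8% to 32.8% (TPM), 35.5% (plain sums) and 56.2% (equal medians). With voom, which changes the scaling and the test together, it was 33.3%. In each of these 4 settings 2 members rose and 1 fell. Depth limits Axl, Olr1, Stab1, Marco and Mertk, at 92 reads or fewer per library.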
